A study of Mus musculus with 12 samples.

Results

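Yap and the activator fusion Tead2-VP16 were compared at high density in mouse NIH3T3 cells, an established fibroblast line, with 4 of the 12 arrays of the study: the 2 arrays of Yap-expressing cells and the 2 arrays of Tead2-VP16-expressing cells. The arrays were chosen by the sample titles and not by measured values, and each difference is Yap minus Tead2-VP16. The groups were Yap cells and Tead2-VP16 cells that were still proliferating when harvested just past the density at which normal cells are confluent (called high density here), Tead2-VP16 cells at complete confluency, control cells at complete confluency, Tead2-EnR cells at 30% confluency and control cells at 30% confluency, each with 2 arrays. All 6 groups were virus-infected, the controls with the control virus, so that none shows uninfected cells. Each construct is represented by 1 population as far as the labels say, and the promoter that drove it, the species of its cDNA and its protein level are not given in the sources used here. Whether replicate arrays stand for separate dishes is not stated in the labels. The p-values therefore cover only the spread from array to array, which may be technical.

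Yap is a transcriptional coactivator without a DNA-binding domain of its own, and Tead proteins are the DNA-binding factors through which it acts on many of its targets. The Hippo kinases phosphorylate Yap and keep it out of the nucleus in crowded cells. Fusing Tead2 to VP16, a viral activation domain, gives a Tead factor that activates without Yap, while EnR is the repression domain of Engrailed. Yap expressed in these cells can act through any Tead protein and through other factors, whereas Tead2-VP16 acts where the Tead2 part binds. The comparison asks where these activators leave cells of the same line with different transcript levels. No measured density is given for either compared group, so a gap in density between them cannot be told apart from the construct.

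All values are log2 of probe set intensity, with 1 probe set per gene, and a gene was called at a limma adjusted p below 0.05 over 18193 genes. Both cell populations carried the markers of fibroblasts. All 15 fibroblast markers were above the median gene, and their summed intensity was 108406 and 109780 in Yap cells, against 109213 and 108603 in Tead2-VP16 cells. Median intensity lay between 51.9 and 53.7 across the 12 arrays. The poly-A spike-in controls averaged 8.59 ± 0.09 in Yap cells and 8.43 ± 0.07 in Tead2-VP16 cells (SD of log2 intensity, n = 2 each), and the hybridization controls averaged 10.87 ± 0.09 in Yap cells and 11.01 ± 0.02 in Tead2-VP16 cells. The part of these controls in the results was not tested.

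The probe sets for the expressed genes gave no call between the groups. Yap1 measured 9.62 and 9.69 in Yap cells, against 9.63 and 9.67 in Tead2-VP16 cells, so the arrays overlapped, and the difference was 0.01 ± 0.05 (SE, limma adjusted p = 0.982). The other Yap1 probe set gave 0.07. Tead2 measured 9.003 and 9.10 in Yap cells, against 9.41 and 9.23 in Tead2-VP16 cells, so the arrays did not overlap, and the difference was -0.27 ± 0.07 (SE, limma adjusted p = 0.0829). Both groups were below control cells at complete confluency, which stood at 9.88. Where these probes lie and whether they match the introduced cDNA is not given in the sources used here, so they check neither label.

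The cells were alike in most of what was measured. The group means correlated with r = 0.998 across 18193 genes, a description over genes and not over samples. The median absolute difference was 0.077 and the median standard error 0.081 on the log2 scale. For 17515 genes (96.3%) the 95% interval of the difference lay within 1.5-fold in either direction. Among the 9096 genes above the median level, this held for 8868 (97.5%).

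Against that background, 367 genes were called, 2.02% of those tested. Of these, 170 were higher in Yap cells (0.934% of all genes) and 197 were lower (1.08%). The differences were small, with a median of 1.33-fold among called genes. At least 1.5-fold was reached by 39 higher and 32 lower genes, and 2-fold by 6 higher and 2 lower genes. All 367 had no overlap between the arrays, as did 46.2% of all genes. The count rested on every array: it was 95 without Yap array 1, 81 without Yap array 2, 86 without Tead2-VP16 array 1 and 188 without Tead2-VP16 array 2. A core of 61 genes, 36 higher and 25 lower, was called whichever of these 4 arrays was left out. Of 203 other probe sets above the median level of called genes, 200 had the same sign as the probe set used, 84 were called with that sign and 0 with the other. In bulk cells, a higher level in every cell and more cells with a high level cannot be told apart.

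**Figure D1:**
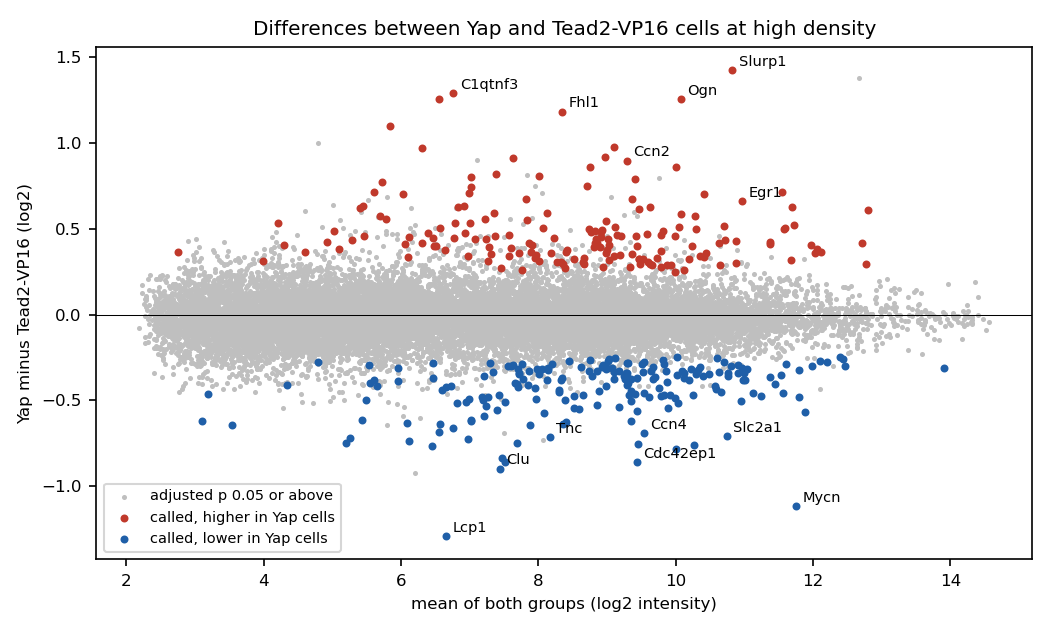
Log2 difference, Yap minus Tead2-VP16, against the mean log2 intensity of both groups, 1 point per gene (18193 genes). Red points are the 170 genes called higher in Yap cells and blue points the 197 called lower, and the grey points are the remaining genes.

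Promoter sequences are given here for 4 genes with a match to GGAATG, the core of the sequence that Tead factors bind, read on both strands (CATTCC on the other), in the 250 bases before the start of the gene. Ankrd1 and Ccn1 are standard Yap and Tead targets, and Ogn and Cdc42ep1 were among the largest differences in each direction. Sequences are from RefSeq (GRCm38.p6), 5′ to 3′ on the strand of the gene, with matches in capitals. The Ankrd1 window is chr19:36119845-36120094 on the minus strand, that of Ccn1 is chr3:145649986-145650235 on the minus strand, that of Ogn is chr13:49607765-49608014 on the plus strand, and that of Cdc42ep1 is chr15:78842397-78842646 on the plus strand.
Ankrd1: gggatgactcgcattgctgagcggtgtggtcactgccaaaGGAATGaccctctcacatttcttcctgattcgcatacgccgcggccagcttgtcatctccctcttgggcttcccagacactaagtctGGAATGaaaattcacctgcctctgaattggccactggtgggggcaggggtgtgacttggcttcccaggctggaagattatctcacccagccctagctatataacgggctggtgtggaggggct
Ccn1: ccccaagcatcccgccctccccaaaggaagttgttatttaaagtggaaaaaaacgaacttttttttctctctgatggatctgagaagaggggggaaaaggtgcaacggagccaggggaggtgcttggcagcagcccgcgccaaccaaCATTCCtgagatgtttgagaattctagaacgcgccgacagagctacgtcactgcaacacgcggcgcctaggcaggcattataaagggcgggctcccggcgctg
Ogn: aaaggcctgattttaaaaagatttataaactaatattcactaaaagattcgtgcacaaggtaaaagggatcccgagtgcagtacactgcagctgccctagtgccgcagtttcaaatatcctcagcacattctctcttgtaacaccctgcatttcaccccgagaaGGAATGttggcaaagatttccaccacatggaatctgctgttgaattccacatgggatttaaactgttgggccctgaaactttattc
Cdc42ep1: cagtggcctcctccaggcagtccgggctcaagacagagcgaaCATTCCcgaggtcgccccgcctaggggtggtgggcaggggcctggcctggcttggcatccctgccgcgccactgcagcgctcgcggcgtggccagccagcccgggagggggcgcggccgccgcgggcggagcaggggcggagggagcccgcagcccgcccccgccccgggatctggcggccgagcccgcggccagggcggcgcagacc
Ankrd1 has 2 matches and each of the others has 1. Of the called genes with a promoter in the table, 21 of 135 higher in Yap cells (15.6%) and 28 of 156 lower in Yap cells (17.9%) held at least 1 match, against 1932 of all 14368 measured genes with a promoter (13.4%) and 12.6% of the 32851 promoters of the table. Of the 30 genes with the largest differences described next, 20 had a promoter in the table and 6 of these held a match. Aspn, a proteoglycan like Ogn, held none, nor did Fhl1 or Adamts1. A match is a description of these letters and not a site of binding.

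Among called genes above the median level whose groups did not overlap, the 15 largest positive differences lay between 0.79 and 1.43. Slurp1, a secreted protein of the Ly6 family, had the largest. It measured 11.51 and 11.57 in Yap cells, against 10.13 and 10.10 in Tead2-VP16 cells, and the 2 Yap arrays stood above all other arrays of the study. The difference was 1.43 ± 0.06 (SE, limma adjusted p = 1.62e-05), or 2.69-fold. C1qtnf3, a secreted protein of the C1q and TNF related family, measured 7.47 and 7.35 in Yap cells, against 6.16 and 6.08 in Tead2-VP16 cells, a difference of 1.29 ± 0.11 (SE, limma adjusted p = 0.000779). Both levels were below those of the confluent control, which measured 8.03 and 8.004, and Yap cells were the closer to it.

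Fhl1, a LIM-domain protein of muscle and the actin cytoskeleton, measured 8.94 and 8.93 in Yap cells, against 7.76 and 7.75 in Tead2-VP16 cells. The arrays of each group were almost the same, and the difference was 1.18 ± 0.06 (SE, limma adjusted p = 6.02e-05). Its level in Yap cells was close to that of low-density control, at 9.15 and 9.07, while confluent control measured 6.27 and 6.25. Cyp26b1, which degrades retinoic acid, measured 9.61 and 9.59 in Yap cells, against 8.65 and 8.59 in Tead2-VP16 cells (difference 0.98 ± 0.07 (SE, limma adjusted p = 0.000324)). Adamts1, a secreted metalloprotease that cleaves proteoglycans, measured 9.40 and 9.48 in Yap cells, against 8.48 and 8.55 in Tead2-VP16 cells (difference 0.92 ± 0.06 (SE, limma adjusted p = 0.00024)). In neither gene did the Yap arrays reach down to the Tead2-VP16 arrays. Ptx3, a secreted pentraxin of innate immunity, measured 10.46 and 10.41 in Yap cells, against 9.48 and 9.65 in Tead2-VP16 cells (difference 0.86 ± 0.07 (SE, limma adjusted p = 0.000657)), and the Yap arrays were close to those of confluent control, 10.35 and 10.38.

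H1f2, a linker histone, measured 9.10 and 9.26 in Yap cells, against 8.37 and 8.27 in Tead2-VP16 cells, a difference of 0.86 ± 0.07 (SE, limma adjusted p = 0.000466). Of its other probe sets, 1 gave 0.86 and 1 gave -0.04. Nfkbiz, a nuclear regulator of NF-kappaB target genes, measured 7.79 and 7.80 in Yap cells, against 6.86 and 7.09 in Tead2-VP16 cells, a difference of 0.82 ± 0.08 (SE, limma adjusted p = 0.00156), with the Tead2-VP16 arrays at the level of confluent control (6.98 and 6.89). Another 4 of the 15 were less firm. Golt1b (Golgi transport, 1.26) and Crim1 (a membrane protein that binds BMPs, 0.81) differed widely between the 2 Tead2-VP16 arrays, which measured 5.68 and 6.18 for Golt1b and 7.32 and 7.90 for Crim1. A second probe set of Golt1b gave 0.03 and a second of Crim1 gave -0.17. These genes, the kinase Stk25 (0.91) and the sialic acid-binding lectin Siglecg (0.80) were not called in every fit that left out 1 of the 4 arrays. Ogn, Aspn and Ccn2, also among the 15, were called in each of these fits and are described with their groups.

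Among the same genes above the median level, the 15 largest negative differences lay between -1.29 and -0.69. Lcp1, an actin-bundling protein best known from leukocytes, measured 6.22 and 5.82 in Yap cells, against 7.15 and 7.46 in Tead2-VP16 cells, a difference of -1.29 ± 0.17 (SE, limma adjusted p = 0.00602). A second probe set gave -1.47. All 4 arrays lay above every array of the other 4 groups, of which the highest was a low-density control array at 5.63, and the gene was not called in every fit that left out 1 of the 4 arrays. Cdc42ep1, an effector of the small GTPase Cdc42 that acts on actin, measured 9.01 and 9.001 in Yap cells, against 9.90 and 9.83 in Tead2-VP16 cells, a difference of -0.86 ± 0.06 (SE, limma adjusted p = 0.000268). The Yap arrays were close to those of confluent control (9.01 and 9.06) and the Tead2-VP16 arrays stood above it.

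Clu, a secreted chaperone, measured 6.93 and 7.06 in Yap cells, against 7.96 and 7.83 in Tead2-VP16 cells, a difference of -0.90 ± 0.07 (SE, limma adjusted p = 0.000466). Its other 3 probe sets gave -1.12, -0.73 and -1.42. Lbp, the lipopolysaccharide-binding protein, measured 6.99 and 7.18 in Yap cells, against 7.98 and 7.91 in Tead2-VP16 cells, a difference of -0.86 ± 0.07 (SE, limma adjusted p = 0.000562). In both genes the arrays of the groups were apart by more than their spread. Tgm2, a transglutaminase that cross-links matrix proteins, measured 9.87 and 9.90 in Yap cells, against 10.71 and 10.59 in Tead2-VP16 cells, a difference of -0.76 ± 0.07 (SE, limma adjusted p = 0.000903). Of its other 5 probe sets, 4 gave between -0.67 and -0.63 and the dimmest gave 0.05.

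Slc2a1, the glucose transporter Glut1, measured 10.45 and 10.35 in Yap cells, against 11.10 and 11.12 in Tead2-VP16 cells, a difference of -0.71 ± 0.06 (SE, limma adjusted p = 0.000779), and its other probe sets gave -0.72 and -0.64. The Yap arrays were close to those of confluent control (10.50 and 10.37). Pkp2, a desmosomal plaque protein, measured 7.24 and 7.41 in Yap cells, against 8.13 and 8.01 in Tead2-VP16 cells, a difference of -0.75 ± 0.08 (SE, limma adjusted p = 0.00246). Ifrd1, a transcriptional coregulator, measured 9.65 and 9.58 in Yap cells, against 10.36 and 10.43 in Tead2-VP16 cells, a difference of -0.78 ± 0.07 (SE, limma adjusted p = 0.000779). Both genes had no overlap between the groups and were called whichever of the 4 arrays was left out.

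The brightest probe set annotated to Mycn, a Myc family transcription factor, measured 11.26 and 11.12 in Yap cells, against 12.40 and 12.22 in Tead2-VP16 cells, a difference of -1.11 ± 0.08 (SE, limma adjusted p = 0.000268). Only 1 of its 3 probe sets showed this, the others being dim with differences of -0.05 and 0.08. The bright probe set measured 13.26 and 13.27 in confluent control and 7.32 and 7.45 in low-density control. Whether it measures Mycn or another transcript was not tested, and each Mycn value given here is that of this probe set. Of the other largest negative differences, Apobr (-0.84, a receptor for apolipoprotein B48 in human macrophages), Mgp (-0.75, an inhibitor of matrix calcification), Gpnmb (-0.73, a membrane glycoprotein) and Sorcs2 (-0.69, a sorting receptor) were called with all arrays but in none of the fits without 1 of the 4.

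**Figure D2:**
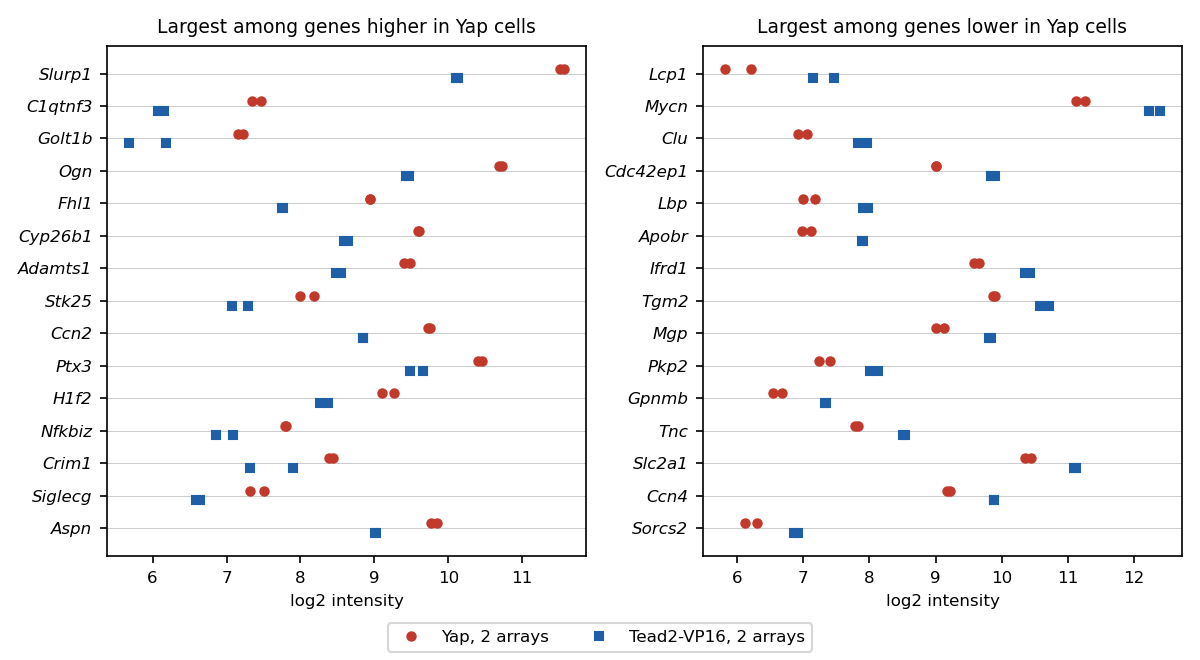
Log2 intensity (horizontal axis) on each of the 2 Yap arrays (red circles) and the 2 Tead2-VP16 arrays (blue squares) for the 15 genes with the largest positive and the 15 with the largest negative difference among called genes above the median level. In every gene the arrays of the groups are apart; Golt1b and Crim1 have the widest gaps between the Tead2-VP16 arrays, 5.68 and 6.18 for Golt1b.

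Of the 3 genes most often used as readouts of Yap and Tead, Ccn2 and Ccn1 were called higher in Yap cells and Ankrd1 was not called. Ccn2 (Ctgf), a matricellular protein and direct target, measured 9.73 and 9.76 in Yap cells, against 8.85 and 8.84 in Tead2-VP16 cells, a difference of 0.90 ± 0.11 (SE, limma adjusted p = 0.00316), or 1.86-fold. Both groups were far above confluent control, at 6.31 and 6.71, and below low-density control, at 11.59 and 11.62. Ccn1 (Cyr61), a matricellular protein of the same family, measured 10.21 and 10.23 in Yap cells, against 9.82 and 9.70 in Tead2-VP16 cells on its brightest probe set, a difference of 0.46 ± 0.05 (SE, limma adjusted p = 0.00334). All 4 of its probe sets were called, the others with 0.50, 1.55 and 1.55, so the size depends on the probe set. Ankrd1, a nuclear ankyrin repeat protein, measured 7.89 and 7.91 in Yap cells, against 7.69 and 7.58 in Tead2-VP16 cells. Its difference was 0.27 ± 0.09 (SE, limma adjusted p = 0.206). The 95% interval ran from 0.06 to 0.47, which leaves room for a difference of the size seen in Ccn1. A second Ankrd1 probe set gave 0.33 (limma adjusted p = 0.113 over all probe sets), also without overlap between the arrays.

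Of the 22 measured genes of a conserved Yap signature from human tumours, 6 were higher and 2 lower in Yap cells, and the median difference was 0.00, against -0.02 over all genes. Over all genes, 0.934% were called higher and 1.08% lower, which is the background for each list count below. Besides Ccn2, Ccn1 and Crim1, the higher genes were Ccdc80 (0.52, a matrix-associated protein), Amotl2 (0.36, an angiomotin that binds Yap and is itself a target) and Nuak2 (0.30, a kinase related to AMPK). The lower genes were F3 (-0.34, tissue factor) and Asap1 (-0.32, a GTPase-activating protein for Arf). Members with differences near 0 included Lats2 (0.00, the Hippo kinase that phosphorylates Yap) and Axl (0.07, a receptor tyrosine kinase), neither of them called. Further members were Nt5e at 0.10, Rbms3 at 0.09, Foxf2 at -0.07, Igfbp3 at -0.10, Myof at -0.12, Ptpn14 at -0.23, Fjx1 at -0.26, Dock5 at -0.26, Tgfb2 at -0.27 and Gadd45a at -0.30, none called. With 1 of the 4 arrays left out, 3 to 4 members were called higher and 0 to 1 lower.

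Among the Tead factors and their cofactors, Vgll3, a Tead-binding cofactor, was the only 1 of 10 genes called, against 2.02% of all genes. It measured 10.45 and 10.43 in Yap cells, against 9.99 and 10.09 in Tead2-VP16 cells, a difference of 0.40 ± 0.06 (SE, limma adjusted p = 0.0135). Vgll4, a cofactor that competes with Yap for Tead, had a difference of similar size that missed the threshold (0.41 ± 0.10 (SE, limma adjusted p = 0.0716)). Wwtr1 (Taz), the paralog of Yap, measured 9.89 and 9.83 in Yap cells, against 10.08 and 10.07 in Tead2-VP16 cells, a difference of -0.22 ± 0.05 (SE, limma adjusted p = 0.0728). Tead1 (0.10), Tead3 (0.28), Tead4 (0.05), Vgll1 (0.23) and Vgll2 (0.04) were not called. Of 32 genes of the Hippo pathway, Amotl2 was higher and Wtip, a LIM protein related to Ajuba that binds Lats kinases, was lower, at 8.42 and 8.41 in Yap cells, against 8.91 and 8.86 in Tead2-VP16 cells (difference -0.47 ± 0.05 (SE, limma adjusted p = 0.00169)). Vgll3 was not called in every fit that left out 1 of the 4 arrays, and Wtip was.

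Of the genes of cell proliferation, some were called higher in Yap cells by small amounts and none lower. Of 45 genes of DNA replication, 42 had a positive difference, 9 were called higher and 0 lower, and the median difference was 0.19; over all genes, 7915 of 18193 were positive and the median was -0.02. Cdc6, which loads the replicative helicase at origins, measured 7.45 and 7.56 in Yap cells, against 6.97 and 6.93 in Tead2-VP16 cells, a difference of 0.56 ± 0.08 (SE, limma adjusted p = 0.00889). Mcm3, a subunit of that helicase, measured 9.25 and 9.29 in Yap cells, against 8.94 and 8.90 in Tead2-VP16 cells, a difference of 0.34 ± 0.06 (SE, limma adjusted p = 0.0147). Mcm5 (0.39) and Mcm6 (0.30) of the same complex, Rrm1 (0.33) and Rrm2 (0.48) of ribonucleotide reductase, Ccne2 (0.48, an S-phase cyclin), Cdt1 (0.28, a licensing factor) and Lig1 (0.31, a DNA ligase) were the other called members.

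Of 47 genes of mitosis, 38 had a positive difference and 5 were called, all higher. These were Kif20b (0.34, a mitotic kinesin), Birc5 (0.31, survivin), Aurkb (0.27, the Aurora B kinase), Smc4 (0.25, condensin) and Ncapg (0.51, condensin). The median was 0.14. The control arrays do not enter the difference between Yap and Tead2-VP16 cells, but they share its estimate of the spread. In them, all 45 replication and 47 mitosis genes were called lower at complete confluency than at low density, as were 22.8% of all genes. The median falls there were -1.91 and -2.57, much larger than the differences between Yap and Tead2-VP16 cells. Without 1 of the 4 compared arrays, 0 to 2 replication genes and 0 mitosis genes were called, so the single calls rest on all 4 arrays.

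Cholesterol synthesis showed the same direction in every measured gene. All 20 differences were positive, 7 genes were called higher and 0 lower, and the median was 0.26. Sc5d, a late enzyme of the pathway, measured 10.33 and 10.41 in Yap cells, against 9.76 and 9.80 in Tead2-VP16 cells, a difference of 0.59 ± 0.05 (SE, limma adjusted p = 0.000796). Cyp51, the lanosterol demethylase, measured 11.57 and 11.59 in Yap cells, against 11.16 and 11.18 in Tead2-VP16 cells, a difference of 0.41 ± 0.05 (SE, limma adjusted p = 0.00312). Both were also called whichever of the 4 arrays was left out. The other called members were Sqle (0.36, squalene epoxidase), Lss (0.35, lanosterol synthase), Fdps (0.32, farnesyl diphosphate synthase), Fdft1 (0.26, squalene synthase) and Msmo1 (0.30, a sterol oxidase). Of the 20, 18 were called lower in confluent than in low-density control, with a median of -1.10, against 22.8% of all genes. Relative to confluent control, the 20 had medians of 0.99 in Yap cells and 0.67 in Tead2-VP16 cells, with the same control arrays for both. With 1 of the 4 arrays left out, 2 to 3 members were called.

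Immediate early genes, which respond within minutes to growth factors and stress, split. Of 35 genes, 7 were higher and 1 lower in Yap cells, with a median of 0.02. Egr1, a zinc finger factor, measured 11.27 and 11.34 in Yap cells, against 10.68 and 10.60 in Tead2-VP16 cells, a difference of 0.66 ± 0.06 (SE, limma adjusted p = 0.000779). Ptgs2, the inducible cyclooxygenase, measured 9.07 and 9.10 in Yap cells, against 8.26 and 8.41 in Tead2-VP16 cells, a difference of 0.75 ± 0.09 (SE, limma adjusted p = 0.00286). In both genes the Yap arrays were above the Tead2-VP16 arrays and above confluent control, which averaged 10.58 for Egr1 and 7.39 for Ptgs2. Fos (0.53), Ier2 (0.51), Klf2 (0.49), Junb (0.48) and Fosl2 (0.46), all regulators of transcription, were the other higher members, and Klf6 (-0.26), also a regulator of transcription, was the lower one. With 1 of the 4 arrays left out, 2 to 6 were called higher and 0 lower.

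The extracellular matrix held the most calls of any list and they went both ways, 9 higher and 11 lower of 49 measured genes, with a median of -0.05. Small leucine-rich proteoglycans, which organize collagen fibrils, were among the higher genes. Ogn (osteoglycin) measured 10.68 and 10.72 in Yap cells, against 9.46 and 9.43 in Tead2-VP16 cells, a difference of 1.26 ± 0.06 (SE, limma adjusted p = 1.62e-05), and its second probe set gave 1.22. Dcn (decorin) measured 11.85 and 11.98 in Yap cells, against 11.22 and 11.17 in Tead2-VP16 cells, a difference of 0.71 ± 0.06 (SE, limma adjusted p = 0.000772). Aspn (asporin) measured 9.76 and 9.84 in Yap cells, against 9.01 and 9.02 in Tead2-VP16 cells, a difference of 0.79 ± 0.07 (SE, limma adjusted p = 0.000657). All 3 were called whichever of the 4 arrays was left out. Their levels were higher in confluent control than in low-density control, by 2.79 for Ogn, 5.80 for Dcn and 3.53 for Aspn. The same held for most of the list, with 41 of 49 matrix genes called higher there, against 26.1% of all genes.

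Col8a1, a short-chain collagen, measured 10.80 and 10.75 in Yap cells, against 10.004 and 10.13 in Tead2-VP16 cells, a difference of 0.70 ± 0.06 (SE, limma adjusted p = 0.000657). The other higher genes were Fbln5 (0.50, an elastic fibre protein), Col5a2 (0.42, a fibrillar collagen), Postn (0.33, periostin), Mfap5 (0.29, a microfibril protein) and Abi3bp (0.59, a matrix protein). Postn was far below confluent control in both groups. Yap cells averaged 8.83 and Tead2-VP16 cells 8.50, against 12.34 in confluent control.

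The lower matrix genes included Tnc and Thbs2 and, less firmly, basement membrane components. Tnc, tenascin C, a large adhesion-modulating glycoprotein, measured 7.79 and 7.82 in Yap cells, against 8.51 and 8.54 in Tead2-VP16 cells, a difference of -0.72 ± 0.06 (SE, limma adjusted p = 0.000779). Thbs2, thrombospondin 2, measured 8.55 and 8.65 in Yap cells, against 9.19 and 9.06 in Tead2-VP16 cells, a difference of -0.53 ± 0.06 (SE, limma adjusted p = 0.00334). In both genes the arrays of the groups were apart and every fit that left out 1 of the 4 arrays called them. Lamc1 (-0.46, a laminin chain), Nid1 (-0.44, nidogen), Col4a1 (-0.30) and Col4a2 (-0.41) are parts of basement membrane. Unlike Tnc and Thbs2, none of them was called in every fit that left out 1 of the 4 arrays. Nor was any of them called in the fit of only the 4 arrays compared. Col5a1 (-0.32), Col5a3 (-0.44) and Col6a3 (-0.46) are further collagens, of which Col5a1 opposed Col5a2, its partner in collagen V. Efemp1 (-0.30, a fibulin) and Mgp completed the group. With 1 of the 4 arrays left out, 6 matrix genes were called higher and 2 to 5 lower.

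Of 36 genes of the actin cytoskeleton and of serum response factor targets, 28 had a negative difference, as had 10278 of all 18193 genes. Of the 36, 6 were called lower and 1, Fhl1, higher, and the median was -0.15. Relative to confluent control, the 36 had medians of 0.40 in Yap cells and 0.55 in Tead2-VP16 cells, with the same control arrays for both. Flna, filamin A, which cross-links actin, measured 10.70 and 10.71 in Yap cells, against 11.23 and 11.19 in Tead2-VP16 cells, a difference of -0.51 ± 0.06 (SE, limma adjusted p = 0.00519). Myl9, a myosin light chain, measured 9.64 and 9.73 in Yap cells, against 10.21 and 10.09 in Tead2-VP16 cells, a difference of -0.47 ± 0.07 (SE, limma adjusted p = 0.00821). Cnn1 (-0.43, calponin), Pdlim7 (-0.39, a PDZ and LIM protein), Lima1 (-0.36, which stabilizes actin filaments) and Acta2 (-0.31, smooth muscle actin) were the other lower members. With 1 of the 4 arrays left out, 0 to 2 were called lower.

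Of 30 integrins, focal adhesion proteins and caveolar proteins, 23 had a negative difference, as had 10278 of all 18193 genes. Of the 30, 3 were called lower, against 1.08% of all genes, and 0 higher, and the median was -0.13. The 3 were Cavin3 (-0.38 ± 0.05 (SE, limma adjusted p = 0.00846), a caveolar coat protein), Itga6 (-0.34 ± 0.06 (SE, limma adjusted p = 0.0152), a laminin receptor chain) and Itgb8 (-0.41 ± 0.08 (SE, limma adjusted p = 0.0327), an integrin chain that activates latent TGF-beta). Itga5 (-0.42, the fibronectin receptor chain) was not called. Of 27 genes of the TGF-beta response, 20 were negative and 3 were called lower, with a median of -0.17, beside the same shares of all genes. Id4, an inhibitor of helix-loop-helix factors, measured 6.02 and 6.11 in Yap cells, against 6.89 and 6.78 in Tead2-VP16 cells, a difference of -0.77 ± 0.07 (SE, limma adjusted p = 0.000903), and the other called members were Tgfbi (-0.49, a secreted matrix protein) and Tgif1 (-0.34, a corepressor). With 1 of the 4 arrays left out, 0 to 1 integrin-list genes and 1 to 3 TGF-beta genes were called lower.

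**Figure D3:**
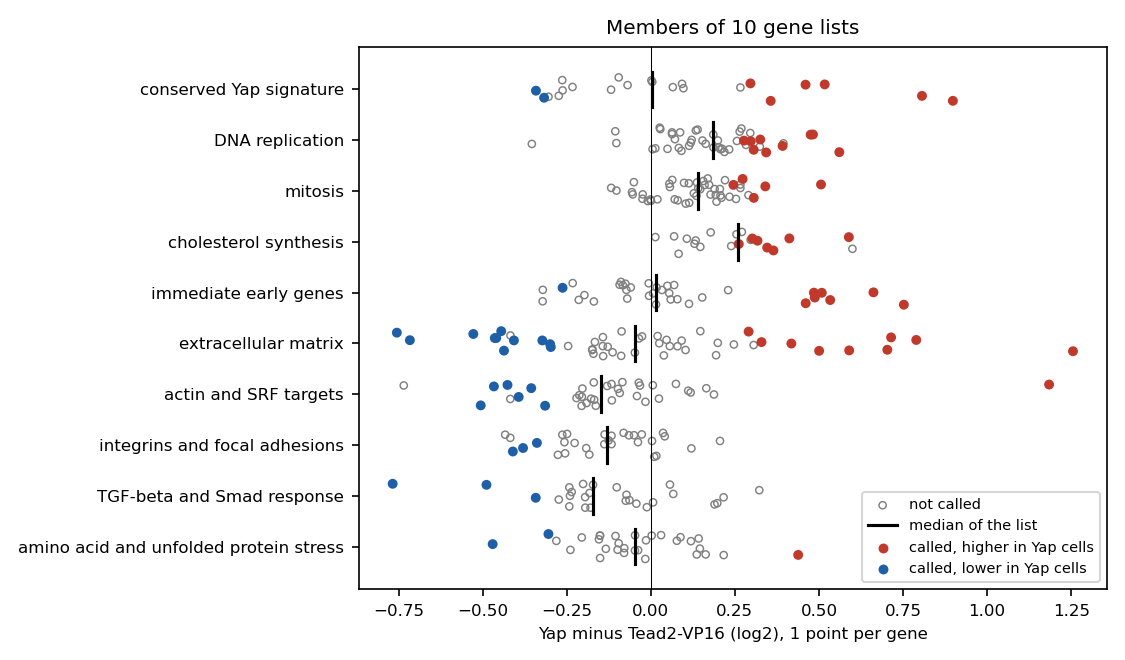
Log2 difference, Yap minus Tead2-VP16, of every measured member of 10 gene lists, 1 point per gene, with the list's median as a black bar. Red and blue points are members called higher and lower in Yap cells; all 20 cholesterol synthesis genes lie to the right of 0, and matrix genes are called on both sides.

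Smaller groups held few calls. Of 28 genes of the Wnt response, Ccn4 and Apcdd1 were lower and none higher. Ccn4 (Wisp1), a matricellular protein induced by Wnt, measured 9.22 and 9.17 in Yap cells, against 9.89 and 9.89 in Tead2-VP16 cells, a difference of -0.69 ± 0.05 (SE, limma adjusted p = 0.000466), and its second probe set gave -0.59. Ccn1 and Ccn2, its relatives, went the other way. Apcdd1, a Wnt inhibitor, had -0.32 ± 0.05 (SE, limma adjusted p = 0.013). Of 26 genes of hypoxia and glycolysis only Slc2a1 was called, and of 32 genes of ribosome biogenesis and Myc only Mycn, on the probe set in doubt. Ccn4, Slc2a1 and Mycn were called whichever of the 4 arrays was left out, and Apcdd1 in none of these fits.

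Of 31 genes of amino acid and unfolded protein stress, Sdf2l1 (0.44, an ER protein) was higher and Chac1 (-0.47, which degrades glutathione) and Cth (-0.30, which makes cysteine) were lower. Of 27 genes of matrix remodelling, Adamts1, Timp1 (0.43, a metalloprotease inhibitor) and Reck (0.37, a membrane-anchored inhibitor) were higher, and Adamts12 (-0.33, a secreted metalloprotease) was among 2 lower. Of 36 growth factors and receptors, Angptl4 (0.64, an inhibitor of lipoprotein lipase) and Vegfd (0.40, a lymphatic growth factor) were higher and Fgfr1 (-0.57, an FGF receptor) was lower. Of 30 chemokines and cytokines, Ccl9 (0.61) and Cxcl5 (0.54), both chemokines, were higher and Csf1 (-0.28, the macrophage growth factor) was lower. Over all genes, 0.934% were called higher and 1.08% lower. Leaving out 1 of the 4 arrays, the stress genes had 0 to 1 call higher and 0 to 1 lower, and the remodelling genes 1 to 2 higher and 0 to 1 lower. The growth factors and the chemokines each had 1 to 2 calls higher and 0 lower.

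Of 34 genes of growth arrest, Dcn was higher and 2 were lower, among them Foxo3 (-0.33, a forkhead factor). Eda2r (-0.51, a receptor induced by p53) was the only call among 22 p53 and p73 targets, and Erbb3 (-0.40, a receptor of the EGF family) the only 1 among 12 EGF family genes. Foxo3, Eda2r and Erbb3 were called in none of the fits that left out 1 of the 4 arrays. None of 29 interferon genes and none of 12 Runx targets was called. Over all genes 2.02% were called, so 0 or 1 call in lists of this size is near that share.

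Markers of other cell types gave these values. Of 11 epithelial markers, Krt14, a keratin, was higher at 10.58 and 10.56 in Yap cells, against 10.01 and 9.98 in Tead2-VP16 cells (difference 0.57 ± 0.06 (SE, limma adjusted p = 0.00144)), and Cdh1, E-cadherin, was lower at 5.78 and 5.75 in Yap cells, against 6.26 and 6.54 in Tead2-VP16 cells (difference -0.63 ± 0.12 (SE, limma adjusted p = 0.0287)); the summed intensity of the 11 was 2190 and 2133 in Yap cells, against 1678 and 1696 in Tead2-VP16 cells. Krt14 made up that gap, since without it the sums were 662 and 624 in Yap cells, against 646 and 687 in Tead2-VP16 cells. Of 10 adipocyte markers, Plin4, a lipid droplet protein, was lower (-0.64 ± 0.13 (SE, limma adjusted p = 0.0419)). None of 10 macrophage, 10 endothelial and 12 muscle markers was called, and of the fibroblast markers only Pdgfrb, a receptor for platelet-derived growth factor, was lower (-0.30 ± 0.06 (SE, limma adjusted p = 0.0422)). With 2.02% of all genes called, few or no calls in such short lists are near that share. Of the 10 macrophage markers, 7 lay below the median gene, and Lyz2 was the brightest. Their summed intensity was 853 and 857 in Yap cells, against 842 and 845 in Tead2-VP16 cells. The macrophage genes Itgam and Ptprc averaged 3.24 and 3.43 in Yap cells, against 3.51 and 3.52 in Tead2-VP16 cells, near the bottom of the scale. Krt14 was called whichever of the 4 arrays was left out, and Cdh1, Plin4 and Pdgfrb in none of these fits.

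What these genes did on arrays outside the comparison was then read from Tead2-VP16 cells and control cells at complete confluency, which share no array with the groups compared. The same fit gave both, so they share 1 estimate of the spread per gene. Of the 197 genes lower in Yap cells than in Tead2-VP16 cells, 114 were called higher in Tead2-VP16 than in control cells at complete confluency (57.9%) and 7 lower, against 5.06% and 4.92% of all genes. Of the 170 genes higher in Yap cells, 75 were called lower (44.1%) and 15 higher. Across the 367 genes, the differences had Pearson r = -0.63 and Spearman rho = -0.65, against -0.29 and -0.24 across all 18193 genes, as a description over genes. The 367 were picked for large differences in both directions, which raises such a correlation, so these values are not comparable. Pearson r was -0.34 within the 170 higher genes and -0.29 within the 197 lower genes, near the value over all genes. Leaving out 1 array at a time, which changes the called set, 25 to 115 of the lower genes were called higher (49.1% to 75.8% of the set) and 25 to 66 of the higher genes were called lower (31.1% to 58.1%). The lowest counts came without Tead2-VP16 high-density array 1, where 25 of 33 and 30 of 53 were left, and without the Yap arrays, where 27 of 38 and 28 of 57 were left without array 1 and 27 of 38 and 25 of 43 without array 2. Without Tead2-VP16 high-density array 2 it was 52 of 81 and 45 of 107. The second count was also lower without confluent control array 1 (42 of 135) or 2 (43 of 135) and without Tead2-VP16 confluent array 1 (45 of 144) or 2 (50 of 144).

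Ccn4 showed this most clearly among the lower genes. At complete confluency it measured 10.25 and 10.29 in Tead2-VP16 cells, against 8.39 and 8.32 in control cells, a difference of 1.92 ± 0.05 (SE, limma adjusted p = 1.63e-07). Pkp2 measured 8.12 and 8.08 in Tead2-VP16 cells, against 6.54 and 6.73 in control cells (1.46 ± 0.08 (SE, limma adjusted p = 1.38e-05)). Tnc measured 8.35 and 8.42 in Tead2-VP16 cells, against 7.11 and 6.99 in control cells (1.34 ± 0.06 (SE, limma adjusted p = 9.26e-06)). In these 3 genes, Tead2-VP16 cells thus exceeded control cells at complete confluency and exceeded Yap cells at high density. Cdc42ep1 (1.05), Apobr (1.35), Lbp (1.28), Slc2a1 (1.28) and Ifrd1 (1.15) were likewise called higher with Tead2-VP16 at complete confluency.

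Among the genes higher in Yap cells, C1qtnf3 measured 5.41 and 5.11 in Tead2-VP16 cells, against 8.03 and 8.004 in control cells at complete confluency, a difference of -2.76 ± 0.11 (SE, limma adjusted p = 4.13e-06). Ptx3 (-1.20), Cyp26b1 (-1.04), Adamts1 (-0.98), H1f2 (-0.96), Fhl1 (-0.59), Aspn (-0.54), Slurp1 (-0.52) and Ogn (-0.34) were also called lower with Tead2-VP16 than in control cells there. Ccn2 was not called at complete confluency, at 6.60 and 6.65 in Tead2-VP16 cells, against 6.31 and 6.71 in control cells (0.12 ± 0.11 (SE, limma adjusted p = 0.573)).

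The 15 exceptions among the higher genes included 4 known for Yap and Tead. Ccn1 measured 10.19 and 10.23 in Tead2-VP16 cells, against 9.23 and 9.21 in control cells at complete confluency (0.99 ± 0.05 (SE, limma adjusted p = 1.27e-05)), so that Tead2-VP16 cells exceeded control cells there while Yap cells exceeded Tead2-VP16 cells at high density. Vgll3 (0.39), Nuak2 (0.38) and Amotl2 (0.28) did the same, as did Cxcl5 (0.30) and Ccl9 (0.29). Ankrd1, not called between Yap and Tead2-VP16 cells, measured 7.78 and 7.82 in Tead2-VP16 cells, against 6.91 and 7.14 in control cells at complete confluency (0.78 ± 0.09 (SE, limma adjusted p = 0.000696)). Mycn was among the 7 exceptions on the other side, lower in Yap than in Tead2-VP16 cells and lower with Tead2-VP16 than in control at complete confluency (-0.58).

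**Figure D4:**
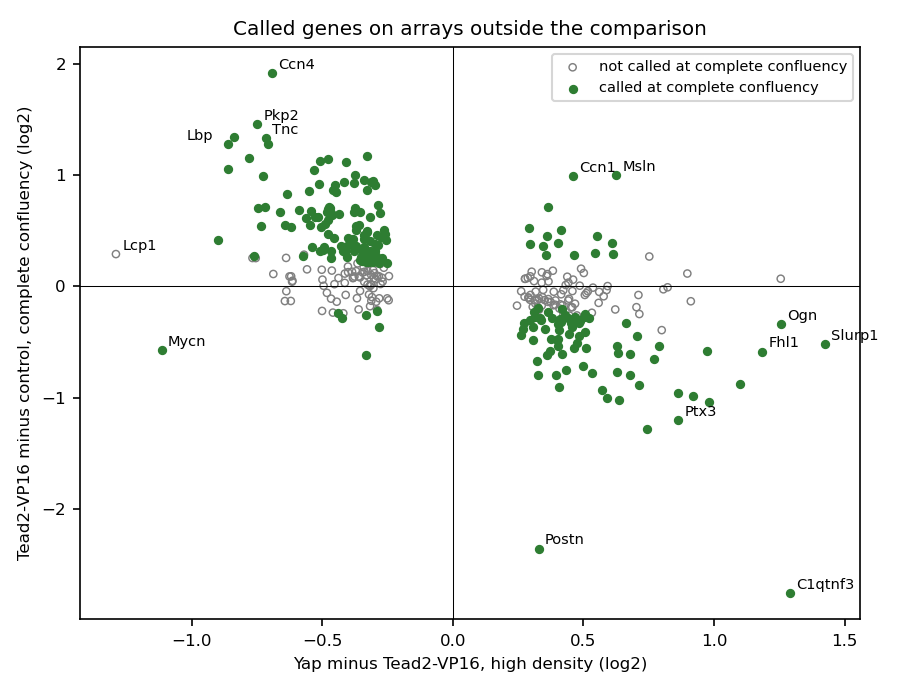
Log2 difference of Tead2-VP16 minus control at complete confluency (vertical axis) against Yap minus Tead2-VP16 at high density (horizontal axis) for the 367 called genes, which come from separate arrays. Filled points are called at complete confluency; most filled points on the left lie above 0 and most on the right below 0, with Ccn1 and Mycn among the exceptions.

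The other comparisons on separate arrays, of density in control cells and of Tead2-EnR, gave calls in both directions. Of the genes higher in Yap cells, 66 were called higher (38.8%) and 78 lower (45.9%) in confluent than in low-density control. Of the genes lower in Yap cells, 107 were called higher (54.3%) and 61 lower (31%), against 26.1% and 22.8% of all genes. Between Tead2-EnR and control cells at low density, the counts were 59 higher (34.7%) and 72 lower (42.4%) for the first set. For the second set they were 85 higher (43.1%) and 59 lower (29.9%), against 20.3% and 18.1% of all genes. Across the 367 genes, the Pearson r with the Yap and Tead2-VP16 difference was -0.15 for density and -0.07 for Tead2-EnR.

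Set beside the control groups, the called genes fell into different orders of level, given as a description. The same control arrays serve for Yap and for Tead2-VP16 here, so the values stand side by side only. Relative to confluent control, the genes higher in Yap cells had a median of 0.17 in Yap cells and of -0.25 in Tead2-VP16 cells, and the genes lower in Yap cells had -0.05 in Yap cells and 0.35 in Tead2-VP16 cells. Of the 170 higher genes, Yap cells had the highest mean of all 6 groups in 44 and Tead2-VP16 cells at high density the lowest in 50. Of the 197 lower genes, Yap cells had the lowest mean in 32 and Tead2-VP16 cells at high density the highest in 70.

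The 6 genes of the plot by group show these orders. Slurp1 was highest in Yap cells and lowest in low-density control (8.49 and 8.62). Ccn2 and Fhl1 lay between the controls in both groups, Yap cells being nearer than Tead2-VP16 cells to low-density control. Ccn4 was 0.84 above confluent control in Yap cells and 1.54 above it in Tead2-VP16 cells, and these neighbours differed beyond their spread. Cdc42ep1 in Yap cells (9.01 on average) and in confluent control (9.04) differed by less than the gap between the control arrays, whereas Tead2-VP16 cells stood apart. Tnc was above every control and Tead2-EnR array in both groups, and higher with Tead2-VP16.

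**Figure D5:**
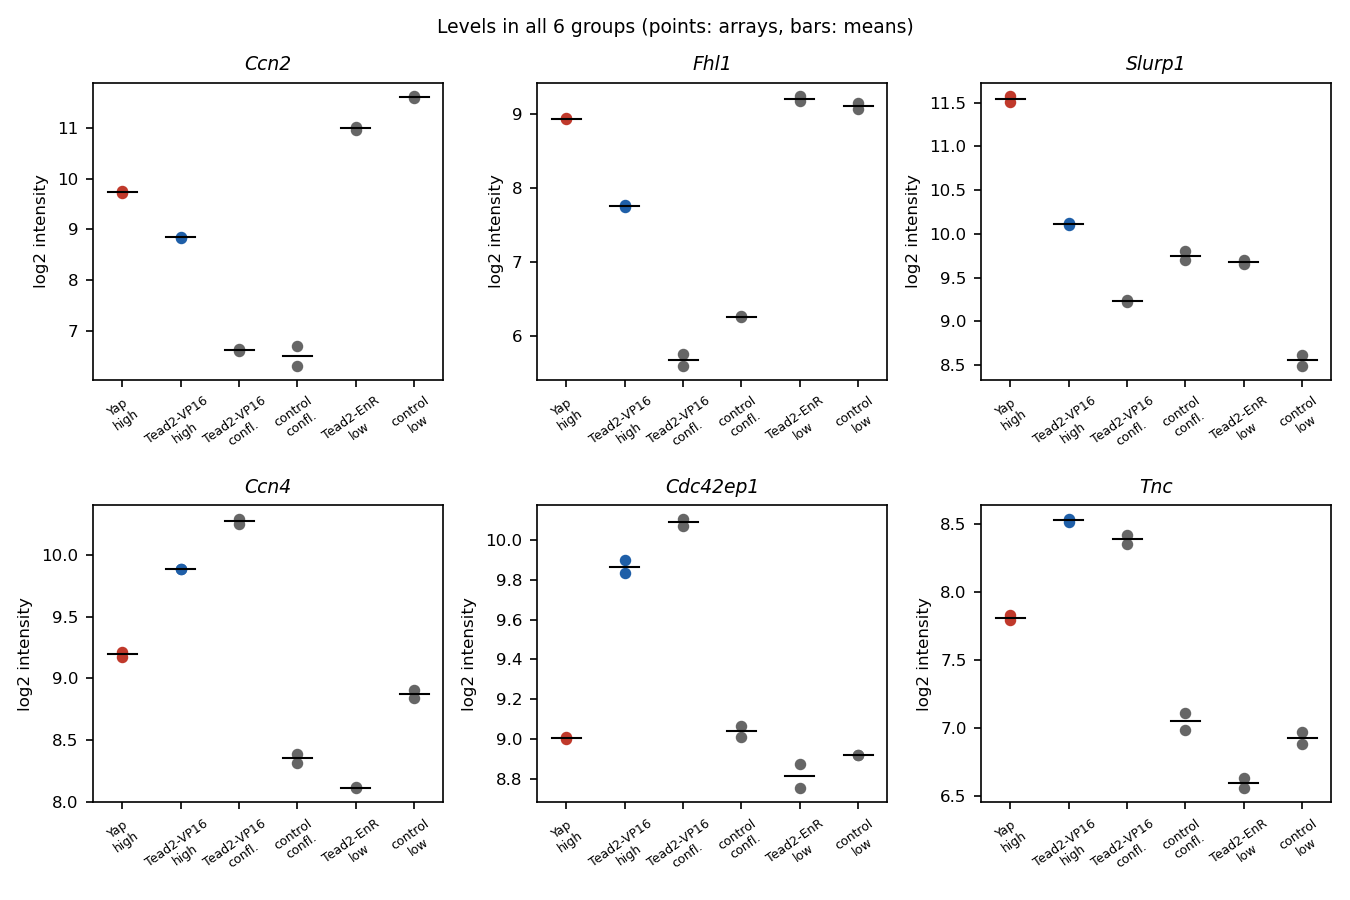
Log2 intensity of 6 called genes on each array (points) with the group mean (bars), for Yap and Tead2-VP16 at high density, Tead2-VP16 and control at complete confluency, and Tead2-EnR and control at low density (2 arrays each). In the upper row Yap cells (red) are above Tead2-VP16 cells (blue), and in the lower row they are below.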

How the data were processed

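The deposited values are probe set intensities on a linear scale (3.77 to 25980), made with RMA per the submitters' processing notes, which give no version; log2 of the deposited values was taken before any test. No detection calls were used. Of 45101 probe sets, 64 were controls, 34945 had 1 gene symbol, 932 several and 9160 none; the platform annotation gave the names, 34741 Entrez identifiers matched a mouse gene table, and 0 symbols changed. Each of 18193 genes was represented by its brightest probe set on average over the 12 arrays, and 9010 genes had several. No value column of the deposited table was left unused (0 columns).

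The model had a mean for each group and took in all 12 arrays; limma 3.58.1 under R 4.3.3 was used (lmFit, then contrasts.fit and eBayes), which left 6 residual degrees of freedom beside 3.45 from the prior. Tests were two-sided with Benjamini-Hochberg adjustment across genes, calls were made below 0.05, and intervals are 95%. The fit was tested on simulated data. With 2 arrays a group, the number of arrays limits the precision. Same-numbered Yap and Tead2-VP16 arrays did not deviate together (r = -0.05), and the fit did not pair them. This correlation over genes cannot exclude that same-numbered arrays were handled together.

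The genes, the 29 lists (740 of 772 entries measured) and the naming rule were chosen with earlier results of these data known. Named were the 15 largest called differences in each direction above the median level of 6.87 without overlap between arrays and without unnamed clones; Yap1 and Tead2; all members of the Yap signature, except 1 whose result is not reported here, and of the Tead cofactor list; and up to 4 called members of each other list, or up to 2 with the largest difference where none was called. Further called members of the main lists are given so that each list's count is complete. Promoters were matched for 14368 genes. Alternatives were other probe set rules, a level filter, normalizations, variance models, a pseudocount, the 4 arrays alone, a replicate block and each array left out. Python 3.11.15 with matplotlib 3.10.9 drew the figures.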

Additional observations from a re-analysis of the deposited data

How the results depend on the processing

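The number of called genes, 367 (170 higher and 197 lower in Yap cells), moved with the setting. It was 986 (402 higher, 584 lower) among the 9096 genes above the median level, 1058 (439 and 619) with a variance trend and a robust prior, 711 (287 and 424) with 16 added before log2, and 78 (39 and 39) in a fit of only the 4 arrays compared. With every one of 34945 probe sets tested, 759 probe sets were called (458 and 301), several of them for 1 gene, and of the 18193 that stand for the genes 332 were called. A 1.5-fold difference with no overlap and no test gave 94 (55 and 39). Averaging each gene's probe sets gave 425, repeated quantile normalization 370 and median centring 361. The replicate block gave 339 (165 and 174), with arrays grouped by number, though whether same-numbered arrays belong together is not known. Leaving out 1 of the 12 arrays gave 81 to 350 genes, 43 to 156 higher and 33 to 194 lower. With the level filter, 299 of 584 lower genes and 177 of 402 higher genes were called the opposite way with Tead2-VP16 at complete confluency, and leaving out 1 array, an alternative chosen after seeing the data, gave 25 to 115 and 25 to 66. Of the 367 genes, 1 changed sign, when probe sets were averaged. For the named genes, no call was reversed under any alternative run, but calls were lost. Counting each gene under each alternative other than leaving out an array, a call was lost in 116 cases and gained in 24. The outcome was unchanged in 1020. Calls were also lost when arrays were left out. With 2 arrays a group, differences under the spread of these arrays were not detectable. The cause of the differences between settings was not tested.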

Other observations

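The genes named here were chosen after their values were seen and stand outside the naming rule. Has2, a hyaluronan synthase, measured 7.35 and 7.44 in Yap cells, against 6.62 and 6.68 in Tead2-VP16 cells, a difference of 0.74 ± 0.07 (SE, limma adjusted p = 0.000796), and at complete confluency it was lower with Tead2-VP16 than in control (-1.28). Ccn5, a further member of the family of Ccn1, Ccn2 and Ccn4, measured 9.64 and 9.76 in Yap cells, against 8.98 and 9.07 in Tead2-VP16 cells, a difference of 0.68 ± 0.06 (SE, limma adjusted p = 0.000991). The 4 family members called were therefore 3 higher and 1 lower in Yap cells. Msln, mesothelin, a cell surface glycoprotein, measured 9.89 and 9.98 in Yap cells, against 9.30 and 9.32 in Tead2-VP16 cells, a difference of 0.63 ± 0.07 (SE, limma adjusted p = 0.00299), and was higher with Tead2-VP16 than in control at complete confluency (1.004).

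On the lower side, Ptch1, the Hedgehog receptor, measured 8.25 and 8.26 in Yap cells, against 8.76 and 8.84 in Tead2-VP16 cells, a difference of -0.55 ± 0.06 (SE, limma adjusted p = 0.00289). Socs3, an inhibitor of cytokine signalling, measured 9.20 and 9.11 in Yap cells, against 9.70 and 9.72 in Tead2-VP16 cells, a difference of -0.56 ± 0.07 (SE, limma adjusted p = 0.00366). Gdnf, a neurotrophic factor, measured 6.998 and 6.95 in Yap cells, against 7.52 and 7.49 in Tead2-VP16 cells, a difference of -0.53 ± 0.07 (SE, limma adjusted p = 0.00614). All 3 were higher with Tead2-VP16 than in control at complete confluency, by 0.55 for Ptch1, 0.61 for Socs3 and 1.05 for Gdnf. Malat1, a nuclear long noncoding RNA, had a difference of 1.38, larger than that of any called gene except Slurp1, but was not called (limma adjusted p = 0.0728).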
